A study of Mus musculus with 111 samples.

Results

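The protocadherins are the largest group of cadherin-type cell adhesion proteins, and the members described here are all mouse genes whose symbol begins with Pcdh and that have a probe set carrying that symbol alone. Of the 18194 genes with such a probe set, 35 were protocadherins, read by 62 probe sets. They comprised 22 genes of the beta cluster, 1 gene of the gamma cluster (Pcdhgc4) and 12 non-clustered genes (Pcdh1, Pcdh7, Pcdh8, Pcdh9, Pcdh10, Pcdh11x, Pcdh12, Pcdh15, Pcdh17, Pcdh18, Pcdh19 and Pcdh20). The RefSeq table lists 70 genes with such symbols, and the other members of the family were not analysed here as single genes. The alpha cluster was represented by 6 probe sets that each carry several Pcdha symbols, so no alpha gene was a member. A gene with several probe sets is given by the brightest of them, judged by its mean over the 111 arrays.

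The values come from Affymetrix arrays of cells sorted from the striatum of Huntington's disease model mice and wild-type (WT) littermates. R6/2 mice carry a transgene of the first exon of human HTT with an expanded CAG repeat, and were taken with their controls at 6 and 12 weeks of age. zQ175 mice, labelled Q175, carry an expanded repeat in a knock-in allele of the mouse gene, and were taken with their controls at 6 and 12 months. Neither mutation is restricted to a cell type, and the labels name no Cre line, agent or treatment. Sorting took GLT1+/CD11b- cells as astrocytes and GLT1-/CD11b+ cells as microglia, and the remaining fraction, here called negative cells, carried neither surface marker. Striata were pooled by litter and genotype after the subventricular zone had been cut away, so each sample stands for several animals. There were 37 sample numbers in each of the 3 fractions, 111 arrays and 24 groups. In each fraction the groups held 5 WT and 5 R6/2 samples at 6 weeks, 5 WT and 6 R6/2 samples at 12 weeks, and 4 samples of each genotype at 6 months and at 12 months. Samples are named below by the number in their label. The labels do not say whether equal numbers in different fractions came from 1 pool, and ages were compared only within a colony.

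Clustered protocadherins lie in tandem arrays in which a cell uses a small selection of promoters. The choice depends on the insulator protein CTCF, on cohesin and on DNA methylation, and the proteins bind like with like between cell membranes and so take part in self-avoidance of neurites and of astrocyte processes. Non-clustered protocadherins are single genes with weaker adhesion. Pcdh10, Pcdh17 and Pcdh19 recruit the actin-regulating WAVE complex, and Pcdh15 forms part of the tip link of hair cells.

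Promoter windows of 3 members that later results turn on are shown because Pcdh10 and Pcdh17 rose together in R6/2 negative cells and Pcdh15 rose in both models. Each window runs from 250 bases before to 50 bases after a RefSeq start on GRCm38.p6, 5′ to 3′ on the gene's strand. Capitals mark a GC box (GGGCGG or its complement) or a TATA box (TATAAA), searched on both strands. The Pcdh10 window is chr3:45378148-45378447 on the plus strand, the Pcdh17 window chr14:84443313-84443612 on the plus strand and the Pcdh15 window chr10:73821617-73821916 on the plus strand, which lies inside the annotated gene.
Pcdh10: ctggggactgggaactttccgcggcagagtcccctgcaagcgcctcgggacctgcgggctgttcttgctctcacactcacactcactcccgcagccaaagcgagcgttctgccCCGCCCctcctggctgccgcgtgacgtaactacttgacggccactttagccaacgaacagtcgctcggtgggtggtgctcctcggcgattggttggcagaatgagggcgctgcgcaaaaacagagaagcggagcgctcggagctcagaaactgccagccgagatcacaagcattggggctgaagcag
Pcdh17: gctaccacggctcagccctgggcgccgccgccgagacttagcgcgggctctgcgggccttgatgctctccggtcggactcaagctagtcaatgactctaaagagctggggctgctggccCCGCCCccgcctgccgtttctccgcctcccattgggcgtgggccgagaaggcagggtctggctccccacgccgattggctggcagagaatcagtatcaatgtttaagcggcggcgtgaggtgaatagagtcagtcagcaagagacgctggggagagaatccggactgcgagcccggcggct
Pcdh15: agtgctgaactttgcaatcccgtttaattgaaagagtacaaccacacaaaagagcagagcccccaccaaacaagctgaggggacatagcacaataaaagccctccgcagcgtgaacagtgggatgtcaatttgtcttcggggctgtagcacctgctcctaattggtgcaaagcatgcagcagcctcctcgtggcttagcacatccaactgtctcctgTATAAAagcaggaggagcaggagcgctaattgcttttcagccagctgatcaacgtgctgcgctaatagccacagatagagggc
The Pcdh10 window held 24 CpG dinucleotides and 1 GC box, and the Pcdh17 window held 26 CpG and 1 GC box. The Pcdh15 window held 8 CpG, no GC box and 1 TATA box. Over all 32851 mouse promoter windows the median was 7 CpG (quartiles 3 and 20), 35.7% held a GC box and 13.6% held TATAAA. The sequence CCAAT, whose first letters can also be the last of a GC box on the opposite strand, was in 9 of the 10 windows available for 9 members and in 37.4% of all windows. CACGTG and TGACGTCA were in none of the 10. These matches describe letters in the window and no binding was measured.

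Array medians lay between 6.26 and 6.65 on the log2 scale. The microglial markers averaged 12.28 to 12.71 in the 18 WT microglial samples (9 of 10 listed genes measured). The astrocyte markers averaged 12.34 to 12.67 in the 18 WT astrocyte samples (10 of 10 genes), but oligodendrocyte markers were as high there, at 12.10 to 12.68 (9 of 10 genes). The astrocyte fraction is therefore called by its sort, and a level in it can come from either cell type. The WT negative cells had high oligodendrocyte (11.24 to 12.88), mural (11.54 to 12.74) and endothelial (10.80 to 11.96) markers. In these bulk samples fewer cells of a type and less RNA per cell cannot be told apart. WT samples 12 and 20 at 12 weeks had Y-linked levels of 2.80 to 3.85 in all 3 fractions, against at least 7.21 in the other samples. The comparisons at 12 weeks are therefore also given without both samples.

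Dim genes were left out of each fit, the limit being a mean level at the 40th percentile among probe sets on the arrays fitted. Calls required an adjusted p below 0.05 (limma, two-sided, Benjamini-Hochberg over all genes tested). Of the 35 members, 8 fell under that level in all 9 fits, and all 8 were beta genes (Pcdhb1, Pcdhb2, Pcdhb4, Pcdhb6, Pcdhb8, Pcdhb11, Pcdhb13 and Pcdhb18). Only Pcdhb22, Pcdh9 and Pcdh12 were tested in all 9 fits. In the fit of all WT fractions 20 members were tested, in the astrocyte fits 26 and 27, in both negative-cell fits 24, and in the microglial fits 3 (R6/2 colony) and 7 (zQ175 colony). A member tested only through the samples in which it is high has a difference built in, so the counts below describe tested members and not the whole family.

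**Figure D1:**
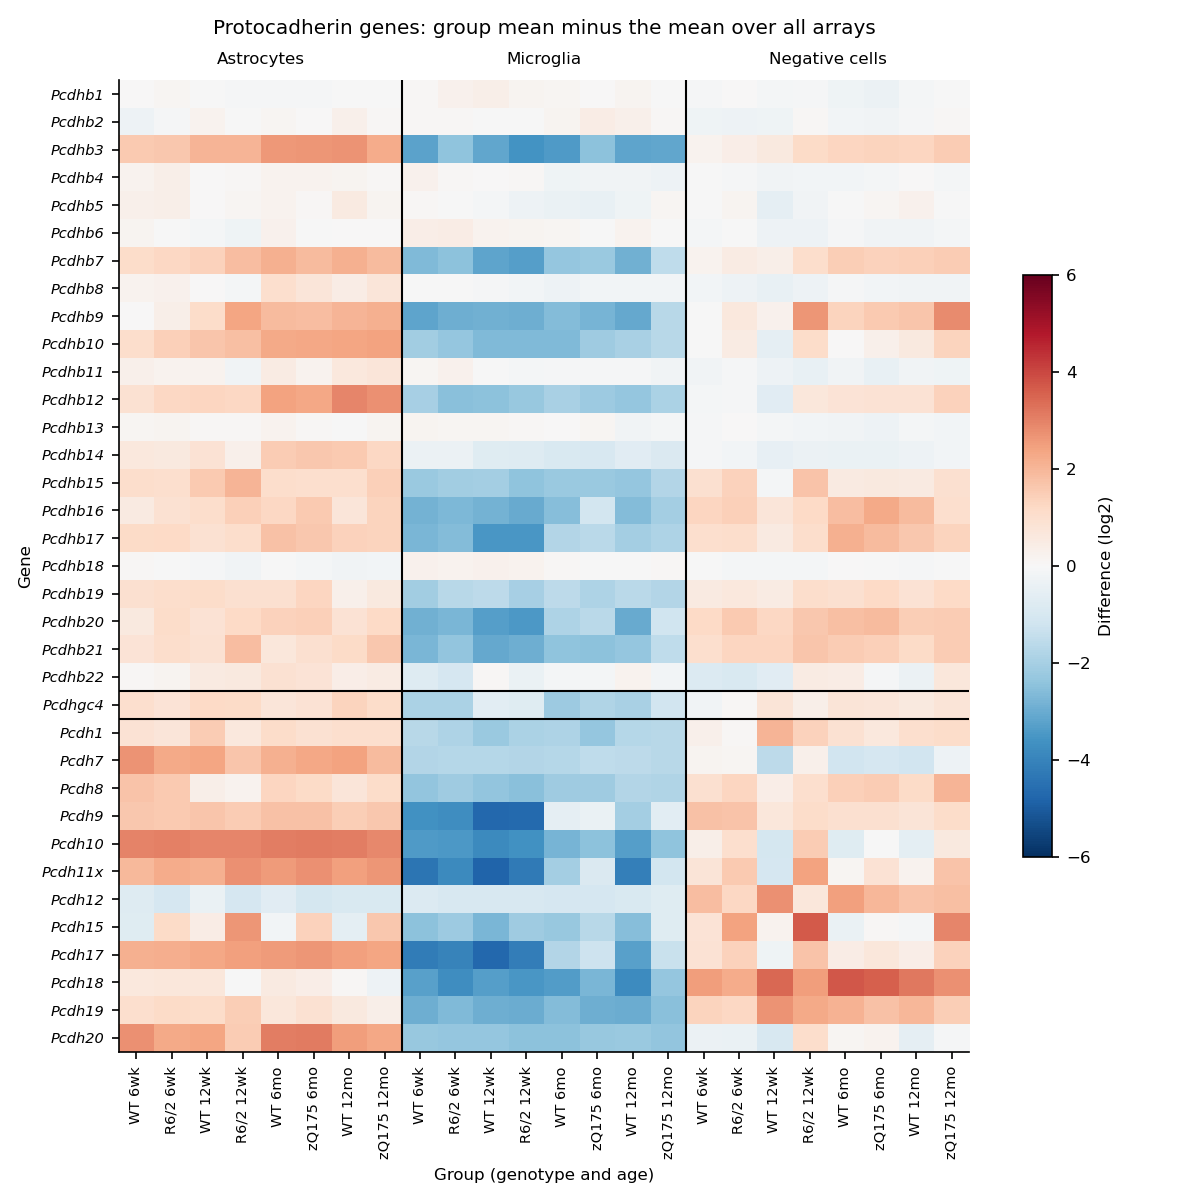
Mean log2 level of each of the 35 members in each of the 24 groups, minus the same gene's mean over all 111 arrays, by subfamily. Most members that varied were low in the 8 microglial groups, and the 8 beta genes under the dim level changed little across columns.

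The 20 protocadherins above the dim level in WT striatum were mostly lowest in sorted microglia. Astrocytes exceeded microglia in all 20 by the test, where 85.6% of all genes tested were called in either direction and 44.9% were called higher. With no filter on dim genes 33 of the 35 members were called, 30 higher and 3 lower in astrocytes. Of all 18194 genes, 14731 were called in either direction without the filter, and their split by direction was not counted. Among the 20 tested members only Pcdhb22 (6.36) and Pcdh9 (7.09) had a WT microglial mean above the dim level of 5.64. The others passed the filter through the other fractions. The median difference of the 20 tested members was 3.87 log2 units, against 0.05 over all genes tested. Over all 35 members it was 3.37. Over the 18 samples of each fraction, 18 of the 20 did not overlap between astrocytes and microglia, and 36.9% of all genes tested did not. The level was lowest in microglia for 19 members and lowest in negative cells for Pcdhb22.

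Pcdh10, a non-clustered member that binds the WAVE complex, had the largest astrocyte excess over both other fractions among the 20 tested members. Its log2 level in WT astrocytes ran from 11.35 to 11.78 (median 11.59), in negative cells from 7.09 to 9.38 (median 8.0) and in microglia from 4.36 to 6.95 (median 5.17). The 3 fractions did not overlap. The difference was 6.35 ± 0.17 (SE) from microglia (adjusted p = 1.5e-36) and 3.49 ± 0.17 from negative cells (adjusted p = 1.7e-24). Pcdh11x, an X-linked adhesion gene, ran from 10.07 to 10.99 in WT astrocytes, from 5.73 to 9.48 in negative cells and from 2.47 to 6.88 in microglia. Astrocytes lay above both other fractions in every WT sample, by 6.17 ± 0.26 over microglia and 2.25 ± 0.26 over negative cells. Astrocytes exceeded microglia by 4.98 ± 0.17 for Pcdh20 and by 5.40 ± 0.19 for Pcdhb3. The smallest differences from microglia, picked out after the values were seen, were those of Pcdhb22 (0.65 ± 0.17) and Pcdh12 (0.24 ± 0.11, adjusted p = 0.047).

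**Figure D2:**
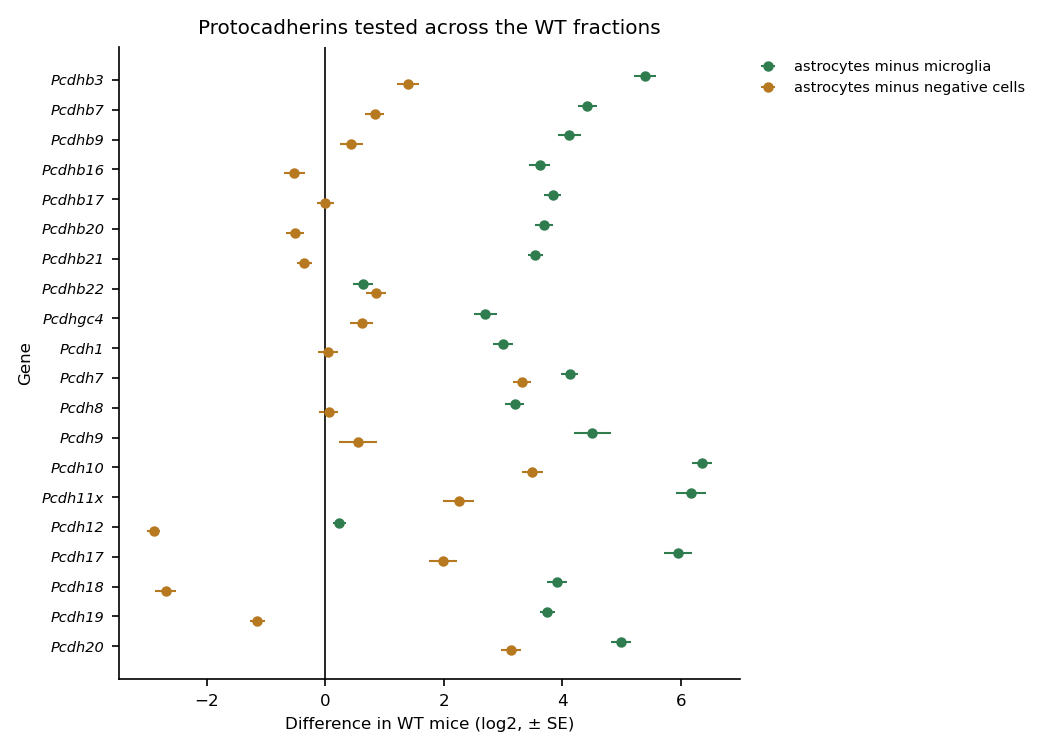
Difference in log2 level between WT astrocytes and microglia and between WT astrocytes and negative cells, with SE, for the 20 members tested (18 samples a fraction). All 20 differences from microglia are above 0, while those from negative cells run from -2.89 for Pcdh12 to 3.49 for Pcdh10.

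Against negative cells the tested members were called in both directions, as genes in general were. Of the 20 tested, 10 were called higher in astrocytes and 6 higher in negative cells, where 75.9% of all genes tested were called (38.7% and 37.2%). Non-clustered Pcdh10, Pcdh7 (3.32 ± 0.15), Pcdh20 (3.14 ± 0.17), Pcdh11x and Pcdh17 (1.99 ± 0.23) led the astrocyte side, followed by Pcdhb3 (1.40 ± 0.19). Pcdh12, known as a vascular endothelial protocadherin, was at 7.75 to 9.68 in the 18 negative samples and at 5.13 to 6.31 in astrocytes. It fell by 2.89 ± 0.11 from negative cells to astrocytes (adjusted p = 5.4e-29) with no overlap. Its other 2 probe sets, both under the dim level and not tested, had WT means of 5.07 in astrocytes and 5.08 in negative cells for one and 2.48 and 2.75 for the other. The mean of the 3 differed by -1.06 and was under the dim level too. Pcdh18 ran from 9.50 to 11.24 in negative cells and from 6.96 to 8.18 in astrocytes, again without overlap, a difference of -2.69 ± 0.17. X-linked Pcdh19 was also higher in negative cells (-1.15 ± 0.12), though its samples overlapped. The beta genes on that side differed by less, with Pcdhb16 at -0.52 ± 0.17, Pcdhb20 at -0.51 ± 0.15 and Pcdhb21 at -0.36 ± 0.13. Between microglia and negative cells 19 of the 20 were called, all lower in microglia (83.7% of all genes tested were called, 43.5% lower). With no filter 6 members were called higher in microglia than in negative cells and 25 lower, where 15158 of all 18194 genes were called in either direction. Pcdh18 (-6.60) and Pcdh19 (-4.89) were among the lower members, and X-linked Pcdh11x was at -3.92.

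Across the 12 genotype comparisons (2 models, 2 ages, 3 fractions), 20 of the 35 members were called at least once and 15 were not. The 20 were 74.1% of the 27 members tested, and 48.0% of the 14059 genes tested at least once were called at least once. The members tested were those bright enough in a fit, so the share is not one of the family. Pcdhb16, Pcdh7 and Pcdh20 were called in both directions. Comparisons at the same age and model in different fractions use different arrays, but the older and younger ages of a fraction share 1 estimate of the spread.

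Pcdh15 was called higher in the mutants in 5 of the 8 comparisons in which it was tested, the most of any member. In R6/2 astrocytes at 6 weeks its log2 levels were 6.74, 7.88, 7.60, 7.01 and 6.60, against 5.25, 5.45, 3.99, 5.93 and 5.74 in WT. Every R6/2 sample lay above every WT sample, by 1.89 ± 0.30 (SE) on average (limma adjusted p = 0.0017). It was the only one of 26 tested members called there, where 1.2% of all genes tested were called, and 2 members were called without sample 5 or sample 6. At 12 weeks the levels were 9.12, 8.36, 8.47, 9.09, 8.24 and 8.72 in R6/2 and 6.52, 6.53, 6.44, 6.13 and 6.60 in WT. The groups again did not overlap, and the difference was 2.23 ± 0.29 (adjusted p = 1.6e-05), or 2.30 without samples 12 and 20. The change of the effect between the ages, 0.34 ± 0.42, was not called (adjusted p = 0.83).

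The same gene was higher in zQ175 astrocytes. At 6 months the 4 zQ175 samples were at 7.59, 7.94, 7.32 and 6.74 and the WT samples at 5.59, 6.31, 5.83 and 5.55. The groups did not overlap, but the difference of 1.58 ± 0.33 missed the threshold (adjusted p = 0.061). At 12 months Pcdh15 was at 7.25, 7.35, 7.74 and 8.06 in zQ175 and at 4.71, 4.91, 6.29 and 5.72 in WT. This was a rise of 2.19 ± 0.33 (adjusted p = 0.0013) with no overlap.

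In negative cells Pcdh15 reached 8.63, 9.98, 9.36, 9.95, 9.76 and 10.51 in R6/2 at 12 weeks, against 7.22, 6.41, 3.46, 6.95 and 6.99 in WT. All R6/2 samples were above all WT samples, by 3.49 ± 0.49 (adjusted p = 2.2e-05). WT sample 16, at 3.46, lay far below the other 4 WT samples. Without it, or without any other single sample, the call was kept. At 12 months zQ175 negative cells were at 8.69, 8.92, 9.30 and 8.86 and WT cells at 5.01, 5.44, 6.06 and 7.01, a difference of 3.07 ± 0.49 (adjusted p = 0.0045). At 6 weeks (1.59 ± 0.51) and at 6 months (0.49 ± 0.49) Pcdh15 was not called in negative cells. It was too dim to be tested in microglia, where the values of the zQ175 samples at 12 months were 4.73, 6.18, 4.95 and 5.33 and of WT samples 3.79, 3.39, 3.33 and 3.32. Pcdh15's other 2 probe sets were under the dim level in every one of these comparisons, with untested differences of 1.85 and 0.51 in R6/2 astrocytes at 12 weeks. Taken as the mean of its probe sets, Pcdh15 itself was under the dim level in all 5 comparisons in which it was called. Those means differed by 1.25 and 1.53 in R6/2 astrocytes at 6 and 12 weeks and by 1.29 in zQ175 astrocytes at 12 months. In negative cells they differed by 2.10 in R6/2 at 12 weeks and by 1.84 in zQ175 at 12 months.

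Oligodendrocyte precursor markers moved in the same direction as Pcdh15 in 4 of these comparisons. Their mean over 6 of 6 genes was 6.59 to 7.16 in R6/2 astrocytes at 12 weeks against 6.23 to 6.72 in WT, and 6.51 to 6.65 against 6.32 to 6.51 in the astrocyte fraction of the zQ175 colony at 12 months. In negative cells it was 9.04 to 10.07 against 8.0 to 9.22 at 12 weeks and 9.47 to 9.63 against 8.21 to 9.23 at 12 months. At 6 weeks the precursor markers were lower in R6/2 astrocytes (5.97 to 6.57) than in WT (6.19 to 6.81), while Pcdh15 was higher. The part of these markers in the Pcdh15 differences was not tested.

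**Figure D3:**
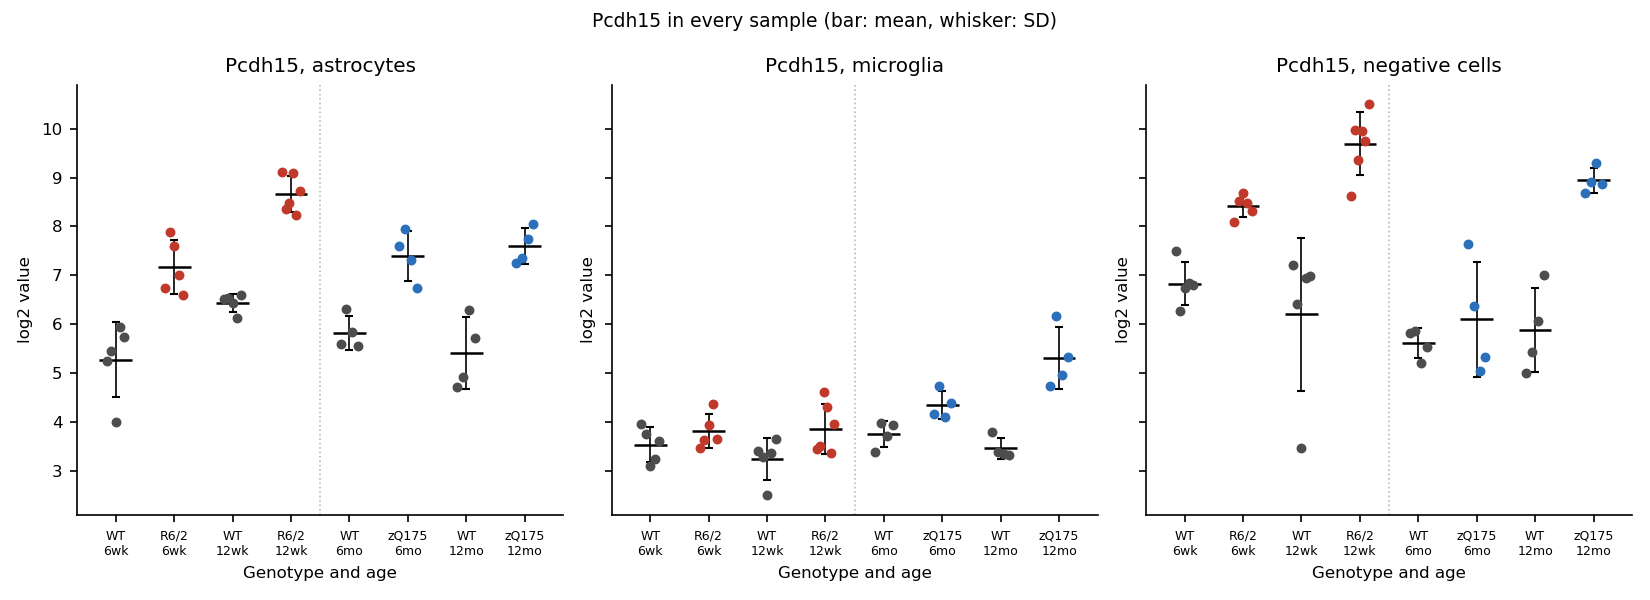
Log2 level of Pcdh15 in every sample, by fraction, with the group mean (bar) and SD (whisker); grey is WT, red R6/2 and blue zQ175. R6/2 and zQ175 astrocytes lie above their WT groups at all 4 ages, and WT sample 16 at 3.46 is the lowest point of its negative-cell group.

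Besides Pcdh15, 11 members were called in R6/2 astrocytes at 12 weeks, for 12 of 26 tested in all (6 higher and 6 lower), where 28.7% of all genes tested were called (14.5% higher and 14.2% lower). The median difference of the tested members was 0.03. With the mean of each gene's probe sets 7 were called, 6 higher and 1 lower. Without WT samples 12 and 20 the count was 10 (7 higher and 3 lower). Leaving out single samples gave counts of 8 to 13.

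Among the higher members, Pcdh11x was at 11.16, 10.95, 11.09, 11.17, 11.002 and 10.88 in R6/2 and at 10.59, 10.31, 10.33, 10.67 and 10.39 in WT. The groups did not overlap, and the difference was 0.58 ± 0.08 (adjusted p = 1.9e-05). Its second probe set differed by 0.45 (adjusted p over all probe sets 0.12) and was not called. Pcdhb21 stood at 8.46, 8.30, 8.43, 8.63, 8.55 and 8.33 in R6/2 and at 7.91, 7.68, 7.13, 7.27 and 7.58 in WT. Every R6/2 sample was above every WT sample, by 0.94 ± 0.15 (adjusted p = 1.0e-04). Pcdhb9 was at 8.77, 8.72, 9.03, 9.03, 9.44 and 8.78 in R6/2 and at 7.48, 7.24, 7.54, 8.04 and 8.26 in WT, again without overlap (1.25 ± 0.23, adjusted p = 4.2e-04). Both are clustered genes whose proteins act in membrane recognition. Pcdhb7 (0.43 ± 0.15) and Pcdhb20 (0.35 ± 0.13) passed narrowly, with adjusted p of 0.042 and 0.044, and their groups overlapped. Each lost its call when any of several single samples was left out (samples 12, 13, 14, 15, 16, 17 or 19 for Pcdhb7, at 0.33 to 0.43, and samples 11, 13, 14, 15, 16 or 18 for Pcdhb20, at 0.29 to 0.34).

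Among the lower members, Pcdh1, an epithelial and endothelial adhesion gene, was at 6.16, 7.07, 6.81, 6.43, 7.37 and 6.79 in R6/2 and at 7.30, 7.67, 7.87, 7.55 and 7.90 in WT. Only the highest R6/2 sample reached the lowest WT sample. Pcdh1 fell by 0.88 ± 0.18 (adjusted p = 0.0011). Pcdhb14 fell by 0.55 ± 0.13 (adjusted p = 0.0030) and was the only lower member whose groups did not overlap, at 5.68 to 6.07 in R6/2 and 6.28 to 6.67 in WT. Its probe set may also read related sequences, as its suffix on the array (x) states. Pcdh12 (-0.63 ± 0.14), Pcdh7 (-0.71 ± 0.17), Pcdh18 (-0.70 ± 0.23) and Pcdh20 (-0.85 ± 0.28) were also called lower. The mean of the probe sets was -0.23 for Pcdhb14 and -0.29 for Pcdh12, both under the dim level. It was -0.40 for Pcdh18 (limma adjusted p = 0.053), -0.70 for Pcdh20 (adjusted p = 0.084) and -0.09 for Pcdh7 (adjusted p = 0.67), none of them called. In a fit of only the 2 groups compared, Pcdh18 (limma adjusted p = 0.070), Pcdh20 (0.058) and the higher member Pcdhb7 (0.070) were not called. Without WT samples 12 and 20, Pcdh12 fell under the dim level, and Pcdh18 (-0.65, adjusted p = 0.11) and Pcdh20 (-0.80, adjusted p = 0.11) were not called. Leaving out sample 20 alone also put Pcdh12 under the dim level, at -0.54. The call for Pcdh18 was lost without sample 11, 16, 17 or 20 (-0.67 to -0.58), and that for Pcdh20 without sample 11, 16, 18, 19 or 20 (-0.80 to -0.66).

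Probe sets of Pcdh7 disagreed in this comparison. The probe set standing for the gene and another one were lower in R6/2 astrocytes (-0.71 and -0.54), while the third was higher (1.0 ± 0.18, adjusted p over all probe sets 4.7e-04). A direction for Pcdh7 in R6/2 astrocytes therefore holds for single probe sets and not for the gene.

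Endothelial and mural markers averaged lower in the same R6/2 arrays, with overlapping groups and no test made. The endothelial mean (8 of 9 genes) was 8.20 in R6/2 (6.91 to 10.21) and 8.97 in WT (8.17 to 9.68), and the mural mean (6 of 6 genes) was 8.86 (8.25 to 9.80) and 9.48 (9.10 to 9.88). Young neuron markers (7 of 7 genes) were higher, at 8.01 to 8.73 against 7.73 to 7.95. Pcdh1, Pcdh12 and Pcdh18 lay in the same direction as these averages, and the part of these markers was not tested. No member's effect differed between 12 and 6 weeks in astrocytes (0 of 26 called by limma, 6 at an unadjusted p below 0.05, with 1.15% of all genes tested called). X-linked Pcdh19 differed by 0.36 ± 0.15 at 12 weeks and was not called (adjusted p = 0.090), but it was without sample 17 (0.43), without sample 20 (0.48) and without samples 12 and 20 together (0.51, adjusted p = 0.034). The largest change of an effect with age was in Pcdhb21 (0.69 ± 0.21, adjusted p = 0.13).

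**Figure D4:**
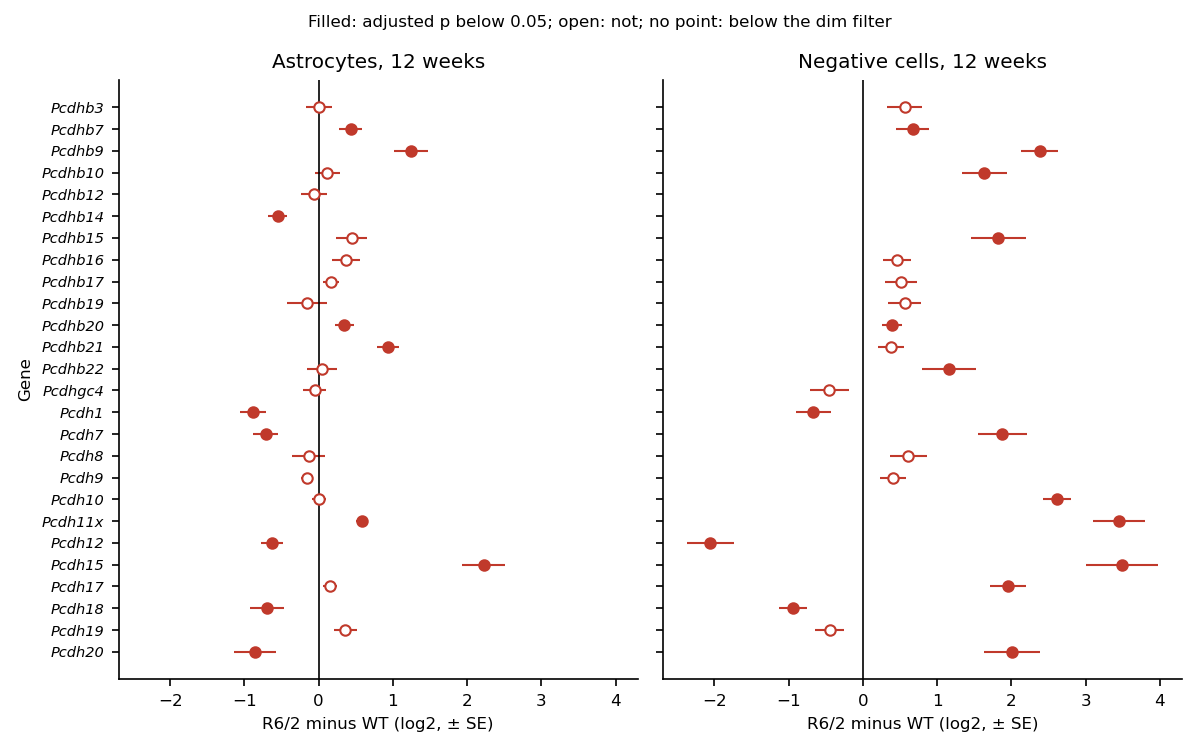
R6/2 minus WT difference in log2 level at 12 weeks, with SE, in astrocytes and in negative cells, for the members tested in each. Filled points were called. Both panels share 1 axis, and the differences in negative cells reach 3.49 (Pcdh15) and -2.06 (Pcdh12) against 2.23 and -0.88 in astrocytes.

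In zQ175 astrocytes few members were called. At 6 months none of 27 tested passed in limma (0.38% of all genes tested did), 2 were at an unadjusted p below 0.05, and 1 passed without sample 29. At 12 months 3 of 27 passed, where 5.9% of all genes tested were called. Besides Pcdh15, Pcdhb3 was at 9.92, 9.85, 9.80 and 9.96 in zQ175 and at 10.51, 10.42, 10.14 and 10.29 in WT. The groups did not overlap, and Pcdhb3 fell by 0.46 ± 0.09 (adjusted p = 0.0070). Pcdhb16 was at 7.44, 7.87, 8.06 and 7.76 in zQ175 and at 7.03, 7.0, 7.16 and 7.48 in WT, a rise of 0.62 ± 0.15 (adjusted p = 0.024) with 1 zQ175 sample inside the WT range. The Pcdhb16 call was lost with the mean of its probe sets (0.38, adjusted p = 0.098) and without sample 31, 32, 33, 34 or 35 (0.53 to 0.62). Pcdh11x differed by 0.17 ± 0.10 and Pcdh19 by -0.25 ± 0.12 at 12 months, and neither was called. No member's effect changed with age (limma, 0 of 27 called and 3 at an unadjusted p below 0.05, against 0.00808% of all genes tested).

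In sorted microglia most members were under the dim level, and in the R6/2 colony only Pcdhb22, Pcdh9 and Pcdh12 were tested. None of the 3 was called by limma, or at an unadjusted p below 0.05, at 6 weeks (0.41% of all genes tested called) or at 12 weeks (6.08%). At 12 weeks the differences were -0.47 ± 0.26 for Pcdhb22, 0.01 ± 0.59 for Pcdh9 and 0.02 ± 0.10 for Pcdh12. None of the 3 effects changed with age, by limma or at an unadjusted p below 0.05 (0.251% of all genes tested called). X-linked Pcdh11x and Pcdh19 were under the dim level there.

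In zQ175 microglia at 12 months 3 of 7 tested members were called, all higher, where 3.15% of all genes tested were called (2.8% higher). Pcdh11x was at 6.78, 7.51, 7.56 and 6.97 in zQ175 and at 3.02, 3.38, 4.94 and 5.56 in WT. The groups did not overlap and the difference was 2.98 ± 0.47 (adjusted p = 0.0059). Pcdh17 stood at 7.29, 7.45, 7.31 and 7.50 in zQ175 and at 4.24, 5.46, 6.26 and 5.75 in WT, a difference of 1.96 ± 0.34 (adjusted p = 0.0093), again without overlap. Pcdhb20 ran from 5.88 to 6.60 in zQ175 and from 3.01 to 5.47 in WT (1.79 ± 0.46, adjusted p = 0.049). Its call was lost without any one of 7 of the 8 samples compared, at 1.32 to 1.90. The mean of Pcdhb20 over the fit, 5.50, was just above the dim level of 5.40, and all its zQ175 values at 12 months were above that level. With no filter Pcdhb20 was not called (limma adjusted p = 0.059). In a fit of only the 2 groups compared it was under the dim level. At 6 months limma called none of 7 (1 at an unadjusted p below 0.05, 0.0082% of all genes tested called). The change with age was not called for any (limma, 0 of 7, 4 at an unadjusted p below 0.05, with 0 of all genes tested called). Pcdh11x changed by 1.84 ± 0.67 between the ages and Pcdh17 by 1.44 ± 0.48.

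The WT samples at 12 months were the low ones in this comparison. In WT microglia Pcdh11x was at 5.84, 6.12, 6.88 and 6.30 at 6 months, Pcdh17 at 6.58, 7.38, 7.19 and 6.62, and Pcdh9, a widely expressed brain protocadherin, at 9.10, 9.63, 9.59 and 9.41. At 12 months Pcdh9 was at 6.48, 8.97, 8.45 and 7.85. All 3 fell from 6 to 12 months in WT (3 of 7 tested, against 7.79% of all genes tested and 5.89% called lower). Pcdh11x fell by 2.06 ± 0.47 (adjusted p = 0.020), Pcdh17 by 1.52 ± 0.34 (adjusted p = 0.020) and Pcdh9 by 1.49 ± 0.39 (adjusted p = 0.032). None of the 3 was called without WT sample 23 or without WT sample 24. With the mean of the probe sets Pcdh9 differed by -0.73 (limma adjusted p = 0.084), and Pcdh11x was under the dim level at -1.31. In addition Pcdh11x was lost without sample 34 (-1.66) and Pcdh9 without sample 22 (-1.60) or 37 (-1.47).

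Oligodendrocyte markers moved with these values. Their mean over 9 of 10 genes in the microglial arrays was 11.19 to 11.34 in zQ175 and 9.24 to 10.93 in WT at 12 months, and 11.02 to 11.33 in WT at 6 months. In the R6/2 colony it was 7.0 to 9.49, and there Pcdh9 was at 3.91 to 7.73. Young neuron markers (7 of 7 genes) were at 6.56 to 11.01 in zQ175 and 6.31 to 7.15 in WT at 12 months. The part of these markers in the microglial differences was not tested, and the calls of Pcdh11x and Pcdh17 were kept when any single sample was left out. In a fit of only the 2 groups compared, neither Pcdh11x (limma adjusted p = 0.056) nor Pcdh17 (adjusted p = 0.063) was called. With the mean of its probe sets Pcdh11x was under the dim level, at 2.49.

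The negative cells of R6/2 mice at 12 weeks had the most calls. Of 24 tested members 15 were called, 12 higher and 3 lower, where 26.2% of all genes tested were called (15.5% higher and 10.7% lower). The median difference of the tested members was 0.59, against 0.02 over all genes tested. At 6 weeks none of the 24 was called by limma (0.377% of all genes tested were), and 5 were at an unadjusted p below 0.05. The smallest adjusted p there was 0.33, for Pcdh10. Without WT samples 12 and 20 the 12-week count was 13 (11 higher and 2 lower), and leaving out single samples gave 12 to 18.

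Pcdh10 was at 9.32, 10.25, 10.11, 10.28, 10.23 and 10.45 in R6/2 and at 7.27, 7.21, 7.53, 7.88 and 7.58 in WT. The groups lay more than a log2 unit apart, and the difference was 2.61 ± 0.19 (adjusted p = 9.1e-09). All 6 probe sets of Pcdh10 were called higher (1.09 to 2.61). Pcdh11x stood at 10.02, 11.19, 10.74, 11.23, 10.52 and 10.66 in R6/2 and at 8.35, 7.71, 5.73, 6.68 and 7.90 in WT, a difference of 3.45 ± 0.35 (adjusted p = 3.8e-07) with no overlap. Pcdh17 was at 9.49, 10.83, 10.64, 10.89, 10.44 and 10.19 in R6/2 and at 8.68, 8.94, 7.81, 8.63 and 8.24 in WT. It rose by 1.95 ± 0.24 (adjusted p = 4.9e-06), and its second probe set by 2.44. These 3 were all genes that WT astrocytes carried at higher levels than WT negative cells.

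Pcdh7 was at 6.00, 7.15, 7.22, 6.82, 6.99 and 5.74 in R6/2 and at 5.46, 5.05, 4.83, 4.42 and 4.10 in WT (1.88 ± 0.33, adjusted p = 2.4e-04, no overlap). Here all 3 Pcdh7 probe sets lay higher in R6/2, with 2.97 for the second and an untested 3.39 for the third. Pcdh20 rose by 2.01 ± 0.38 (adjusted p = 4.9e-04), with R6/2 samples from 5.51 to 8.12 and WT samples from 4.56 to 6.04, so that the groups overlapped. Of the clustered genes, Pcdhb9 was at 8.36, 8.98, 9.08, 9.49, 9.53 and 10.06 in R6/2 and at 6.50, 6.49, 6.51, 7.05 and 7.79 in WT. It was higher in every R6/2 sample, by 2.38 ± 0.25 (adjusted p = 6.5e-07). Pcdhb10 rose by 1.64 ± 0.30 (adjusted p = 4.2e-04) with overlap, since R6/2 sample 11 was at 6.02 and WT sample 20 at 6.58. Pcdhb15, Pcdhb22, Pcdhb7 and Pcdhb20 were called higher too, at differences from 1.82 down to 0.39.

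The 3 lower members were Pcdh12, Pcdh18 and Pcdh1. Pcdh12 was at 7.70, 6.92, 6.89, 5.87, 7.58 and 7.43 in R6/2 and at 8.72, 9.04, 9.50, 8.66 and 9.68 in WT. Every R6/2 sample was below every WT sample, and Pcdh12 fell by 2.06 ± 0.32 (adjusted p = 6.9e-05). Its other 2 probe sets were under the dim level, at -0.40 and -0.35, and so was the mean of the 3 (-0.94). Pcdh18 was at 9.74, 9.83, 9.34, 9.71, 9.74 and 10.31 in R6/2 and at 10.94, 11.16, 10.68, 10.36 and 10.45 in WT. It fell by 0.94 ± 0.18 (adjusted p = 6.6e-04) without overlap, and its other 2 probe sets fell by 1.37 and 1.53. Pcdh1 fell by 0.67 ± 0.24 (adjusted p = 0.047). Its call was lost without sample 11, 13, 14, 15, 16, 17, 18 or 20 (-0.71 to -0.55). Pcdh12 and Pcdh18 were higher in WT negative cells than in WT astrocytes, as was X-linked Pcdh19. Pcdh19 was at -0.44 ± 0.20 in R6/2 and was not called, but it was without R6/2 sample 19 (-0.55).

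The composition markers of the negative cells differed between these groups. Astrocyte markers (10 of 10 genes) averaged 9.23 to 10.50 in R6/2 and 7.58 to 8.31 in WT at 12 weeks, with no overlap. At 6 weeks they averaged 9.75 to 10.08 in R6/2 and 8.95 to 10.17 in WT. At 12 weeks the endothelial markers were at 10.79 to 11.65 against 11.47 to 11.96, the mural markers at 11.56 to 12.44 against 12.47 to 12.74, and the leptomeningeal markers (6 of 6 genes) at 8.62 to 9.43 against 9.78 to 10.29. Pcdh10, Pcdh11x, Pcdh17, Pcdh7 and Pcdh20 thus lay in the direction of the astrocyte markers, and Pcdh12 and Pcdh18 in that of the vascular and leptomeningeal markers. The part of these markers in the member differences was not tested.

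**Figure D5:**
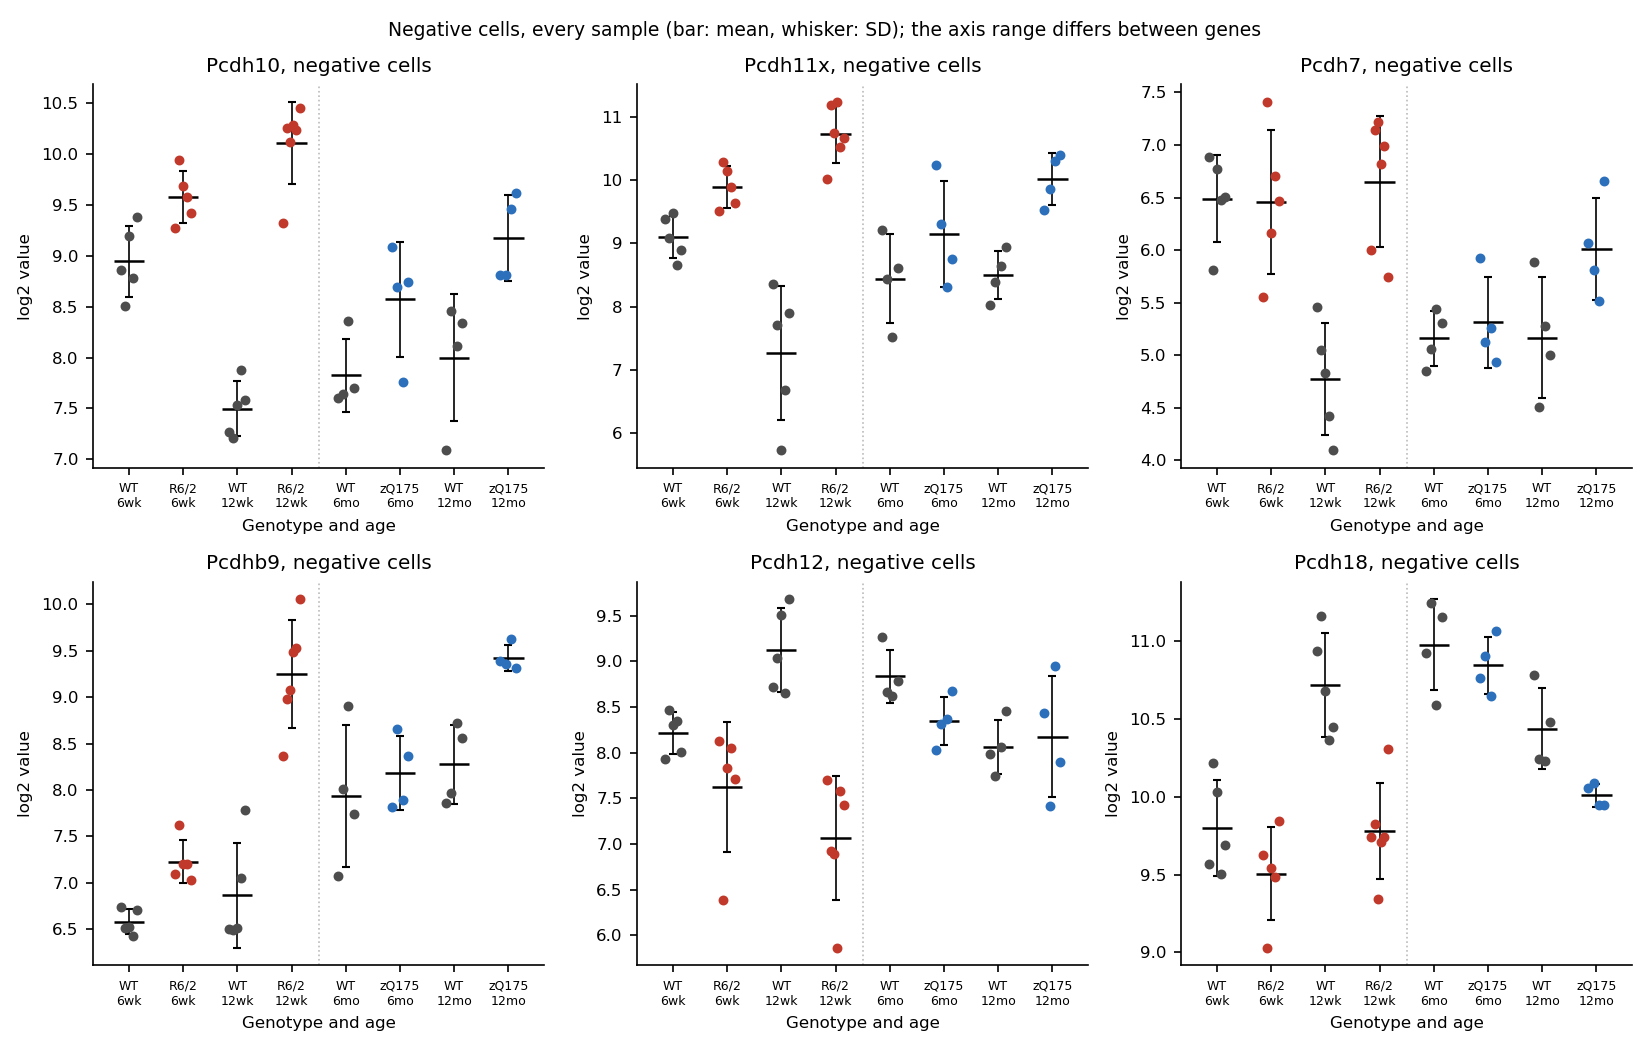
Log2 level of 6 members in every negative-cell sample, by group, with group mean and SD (grey WT, red R6/2, blue zQ175); the axis range differs between panels. At 12 weeks Pcdh10, Pcdh11x, Pcdh7 and Pcdhb9 are higher and Pcdh12 and Pcdh18 lower in every R6/2 sample than in every WT sample.

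The R6/2 difference in negative cells grew from 6 to 12 weeks for 6 of the 24 tested members, all in the higher direction (4.25% of all genes tested were called, 3.77% higher). The increase was 1.98 ± 0.28 for Pcdh10 (adjusted p = 2.6e-04), 2.66 ± 0.50 for Pcdh11x (adjusted p = 0.0028), 1.74 ± 0.36 for Pcdhb9 (adjusted p = 0.0061) and 1.45 ± 0.35 for Pcdh17 (adjusted p = 0.018). It was 1.91 ± 0.47 for Pcdh7 (adjusted p = 0.022) and 2.04 ± 0.54 for Pcdh20 (adjusted p = 0.035). In WT negative cells 4 of the 6 (Pcdh10, Pcdh11x, Pcdh17 and Pcdh7) fell between the same ages. Pcdh10 in WT negative cells was at 8.86, 8.50, 9.20, 8.78 and 9.38 at 6 weeks and at 7.27, 7.21, 7.53, 7.88 and 7.58 at 12 weeks, while R6/2 samples were at 9.27 to 9.94 and then 9.32 to 10.45. Pcdh20 lost its call without any one of 14 of the samples, at 1.87 to 2.11, and at 2.05 (adjusted p = 0.061) without both WT samples 12 and 20.

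In zQ175 negative cells no member was called at 6 months (limma, 0 of 24, 1 at an unadjusted p below 0.05, with 0 of all genes tested called). At 12 months 7 of 24 were called, 6 higher and 1 lower, where 6.93% of all genes tested were called (3.85% higher and 3.08% lower). Beside Pcdh15, Pcdhb10 was at 6.95, 6.96, 7.36 and 7.18 in zQ175 and at 6.26, 6.23, 6.45 and 6.56 in WT, a rise of 0.74 ± 0.14 (adjusted p = 0.010) with no overlap. Pcdh8, an activity-regulated protocadherin, was at 9.32, 9.0, 9.29 and 9.0 against 8.07, 7.77, 8.54 and 8.67 (0.89 ± 0.22, limma adjusted p = 0.033). Like that of Pcdhb14, the Pcdh8 probe set has the suffix x and may also read related sequences. Pcdh10 was at 8.81, 8.81, 9.46 and 9.62 against 7.09, 8.45, 8.12 and 8.34 (1.17 ± 0.33, adjusted p = 0.046). Pcdh11x rose by 1.52 ± 0.39 (adjusted p = 0.037) and Pcdhb9 by 1.14 ± 0.32 (adjusted p = 0.044). The groups of these 5 did not overlap. Pcdhb16 was lower (-0.90 ± 0.26, adjusted p = 0.049), opposite to its rise in zQ175 astrocytes, and its other 2 probe sets differed by -0.03 and 0.10.

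Pcdh15 and Pcdhb10 kept their calls when any single sample was left out, and the other 5 did not. Pcdh10 and Pcdh11x lost their calls without any one of samples 30 to 36 (0.87 to 1.33 and 1.36 to 1.68). Pcdh8 lost its call without sample 30, 32, 34 or 35 (0.73 to 0.85), Pcdhb9 without sample 30, 31, 32, 34 or 35 (1.01 to 1.17) and Pcdhb16 without any sample but 33 (-1.0 to -0.72). Leaving out 1 sample gave counts of 2 to 7 called members. The count was 2 without sample 30, 32, 34 or 35, 3 without sample 31 and 4 without sample 36. Astrocyte markers overlapped between genotypes at 12 months (8.77 to 9.75 in zQ175 and 8.32 to 10.16 in WT). Microglial markers (9 of 10 genes) ran from 6.16 to 10.03 in zQ175 and from 5.31 to 6.38 in WT, and their part in the result was not tested. Pcdh19 differed by -0.50 ± 0.18 (adjusted p = 0.090) without overlap and was not called. No effect changed with age (limma, 0 of 24, 5 at an unadjusted p below 0.05, 0.0317% of all genes tested called), and 1 did without sample 26.

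The effects at the older age were then compared between fractions within 1 fit per model. In R6/2 at 12 weeks, 7 of 21 tested members had an effect that differed between astrocytes and negative cells (18.7% of all genes tested). The effect was lower in astrocytes for Pcdh10 (-2.60 ± 0.31, adjusted p = 3.3e-09), Pcdh7 (-2.60 ± 0.34), Pcdh20 (-2.86 ± 0.43), Pcdh11x (-2.87 ± 0.52, adjusted p = 3.2e-05) and Pcdh17 (-1.80 ± 0.50). It was higher in astrocytes for Pcdh12 (1.43 ± 0.31, or 0.65 as the mean of its probe sets) and for Pcdh19 (0.80 ± 0.29, adjusted p = 0.048). For Pcdh10 the R6/2 and WT astrocyte means differed by 0.01 while those of negative cells differed by 2.61. The Pcdh19 call was lost without any one of samples 11 to 17, at 0.72 to 0.81, and without samples 12 and 20 together (0.85, adjusted p = 0.10). The Pcdh15 effect did not differ by this test (-1.27 ± 0.53, adjusted p = 0.085).

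Against microglia, 3 of 21 tested members had a different R6/2 effect in astrocytes (9.6% of all genes tested). These were Pcdh1 (-1.23 ± 0.32, adjusted p = 0.0071), Pcdh15 (1.60 ± 0.53, adjusted p = 0.041) and Pcdhb9 (1.32 ± 0.45, adjusted p = 0.049). In the microglial fit of that colony all 3 were under the dim level of 5.43. Their means there were 4.24, 3.62 and 3.61, so the astrocyte effect was set against dim values. None of the 3 was called without WT samples 12 and 20, with values of -1.02, 1.49 and 1.22. Without sample 11, 12, 13, 17, 20 or 21 alone only 1 member was called. In zQ175 mice at 12 months 2 of 24 tested members differed between astrocytes and microglia (1.84% of all genes tested), Pcdh11x (-2.81 ± 0.54, adjusted p = 0.0030) and Pcdh17 (-2.05 ± 0.42). Between astrocytes and negative cells only Pcdh7 differed (-1.38 ± 0.32, where 3.65% of all genes tested were called). Its call was lost without sample 35 (-1.17, limma adjusted p = 0.055). In the zQ175 negative-cell fit Pcdh7 had a mean of 5.41, under the dim level of 5.54, and was not tested.

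Between 12 and 6 weeks the share of members that changed in WT mice was near that of all genes. In WT astrocytes 7 of 26 tested members differed (26.9%, against 28.2% of all genes tested), and 4 did without samples 12 and 20. Pcdh8 was at 8.93, 8.40, 8.93, 9.23 and 8.50 at 6 weeks and at 7.0, 7.40, 7.15, 7.95 and 7.83 at 12 weeks, a fall by 1.33 ± 0.23 (limma adjusted p = 5.3e-04) with no overlap. The limit of its probe set with the suffix x holds here too. Pcdhb9 (1.11 ± 0.24), Pcdh15 (1.17 ± 0.30, or 0.39 as the mean of its probe sets), Pcdh1 (0.67 ± 0.19), Pcdhb10 (0.62 ± 0.18), Pcdhb3 (0.49 ± 0.18) and Pcdhb16 (0.52 ± 0.19) rose. Pcdhb3 lost its call without sample 2, 3, 12, 14, 16, 18 or 20 (0.40 to 0.52) and Pcdhb16 without sample 1, 2, 3, 5, 12, 16, 18 or 20 (0.43 to 0.57).

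In WT negative cells 12 of 24 tested members differed between 12 and 6 weeks, 5 higher and 7 lower, near the 51% of all genes tested (28% higher and 23% lower). Pcdh1 (1.75 ± 0.25), Pcdh19 (1.36 ± 0.20), Pcdhgc4 (1.0 ± 0.27), Pcdh18 (0.92 ± 0.19) and Pcdh12 (0.91 ± 0.33) rose. Pcdh11x (-1.82 ± 0.36), Pcdh7 (-1.72 ± 0.34), Pcdh10 (-1.45 ± 0.20), Pcdh17 (-1.12 ± 0.25) and Pcdh9 (-1.07 ± 0.18) were among those that fell. Astrocyte markers fell in the same arrays, from 8.95 to 10.17 at 6 weeks to 7.58 to 8.31 at 12 weeks, and their part was not tested. Pcdh12 lost its call without sample 1, 5, 16 or 20 (0.77 to 0.86), and the mean of its probe sets was at 0.22. Pcdhb15 (-1.07) and Pcdhb16 (-0.57) were also called lower. The first lost its call without sample 1, 16 or 20 and the second without sample 2, 5, 12 or 18. In WT microglia Pcdhb22 rose by 0.85 ± 0.27 from 6 to 12 weeks (1 of 3 tested, 30.1% of all genes tested), but not without sample 14 (0.67) or 20 (0.72). From 6 to 12 months limma called no member in WT astrocytes (3.99% of all genes tested, 10 members at an unadjusted p below 0.05) or WT negative cells (0.0634%, 5 members). In WT astrocytes 1 was called without sample 22 or 37 and 3 without sample 25.

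The spread between samples limits these comparisons unevenly. The pooled SD within groups in astrocytes ran from 0.12 for Pcdhb6 and 0.13 for Pcdh11x to 0.51 for Pcdh15. In negative cells the largest was again that of Pcdh15 (0.83), and in microglia that of Pcdh18 (0.92).

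Genes that act with protocadherins were counted from lists grouped by function. The counts at 12 weeks stand beside the 28.7% of all genes tested that were called in R6/2 astrocytes and the 26.2% in R6/2 negative cells. Of 15 tested genes for CTCF, cohesin and silencing factors, which govern promoter choice at the clusters, 6 were higher and none lower in R6/2 astrocytes at 12 weeks, where 14.5% of all genes tested were called higher and 14.2% lower. Their median difference was 0.23. The cohesin subunit Stag1 rose by 0.38 ± 0.07, the cohesin loader Nipbl by 0.49 ± 0.09 and the cohesin regulator Pds5b by 0.38 ± 0.09. Limma called none of the 15 in zQ175 astrocytes at 12 months (2 at an unadjusted p below 0.05), in R6/2 negative cells at 12 weeks (1) or in zQ175 negative cells at 12 months (2). The R6/2 effect of Stag1 (0.57 ± 0.12), Pds5b (0.47 ± 0.11) and Ctcf (0.32 ± 0.08) was higher in astrocytes than in microglia. Of the clustered members tested in those astrocytes, Pcdhb21, Pcdhb9, Pcdhb7 and Pcdhb20 rose and Pcdhb14 fell.

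Of 9 tested WAVE complex genes, Cyfip2 was higher in R6/2 astrocytes at 6 weeks (0.80 ± 0.14, adjusted p = 0.0046) and at 12 weeks (0.93 ± 0.14), in zQ175 astrocytes at 12 months (1.15 ± 0.18, adjusted p = 0.0019) and in R6/2 negative cells at 12 weeks (0.91 ± 0.17). With the mean of its probe sets the first and the last were not called, at 0.49 (limma adjusted p = 0.20) and 0.36 (adjusted p = 0.075). Cyfip2 encodes a subunit of the WAVE complex, which Pcdh10, Pcdh17 and Pcdh19 recruit. The other calls at 12 weeks were Nckap1 in astrocytes (0.17 ± 0.06) and, in negative cells, Wasf1 (0.94 ± 0.14) and Nckap1l (-1.30 ± 0.43). The calls of both Nckap1 (without sample 12, 16, 18 or 21) and Nckap1l (without sample 13, 15, 16, 17, 18 or 20) were lost. Of the cytoplasmic and surface partners, 2 of 9 tested rose and 1 fell in R6/2 astrocytes at 12 weeks, near the 28.7% of all genes, and Marcks was among them (0.62 ± 0.10). In R6/2 negative cells 2 of 10 rose and 2 fell (26.2% of all genes), and Nlgn1, a synaptic adhesion gene, rose by 2.60 ± 0.27. With the mean of its probe sets Nlgn1 was under the dim level, at 1.55.

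Of 10 tested classical cadherins, 2 rose and 3 fell in R6/2 astrocytes at 12 weeks (28.7% of all genes tested were called), and 5 rose and 1 fell in R6/2 negative cells (26.2%). Cdh6 rose by 1.33 ± 0.19 in R6/2 astrocytes at 12 weeks, by 0.79 ± 0.13 in zQ175 astrocytes at 6 months and by 1.71 ± 0.13 at 12 months, with the 6-month call lost without sample 27 (0.76). Cdh10 differed by -0.41 ± 0.07 in R6/2 astrocytes and by 1.23 ± 0.22 in R6/2 negative cells at 12 weeks. Of the atypical cadherins 1 of 7 rose in R6/2 astrocytes, Fat1 (0.24 ± 0.07), and 1 of 6 rose and 1 fell in R6/2 negative cells, against the same 28.7% and 26.2%. In zQ175 microglia at 12 months Wasf1 (2.13 ± 0.35), Nckap1 (1.40 ± 0.31), Cdh11 (2.15 ± 0.39), Fyn (0.85 ± 0.12) and Fat1 (0.92 ± 0.14) rose, in the arrays in which the oligodendrocyte markers were high. Nckap1 there lost its call without sample 31, 32, 33 or 34 (1.12 to 1.5).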

How the data were processed

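Sorted striatal cells of 24 groups were measured on Affymetrix arrays. The deposited values are log2 expression, made with affy and RMA per the submitters' processing notes, which also name limma, with no versions given. Which arrays were normalized together is not given in the sources used here. Of 45101 probe sets, 34958 carry 1 symbol, 932 several and 9211 none. GEO's platform annotation gave the symbols, and 34754 were matched by gene ID to RefSeq on GRCm38.p6, with 0 symbols changed.

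Limma 3.58.1 in R 4.3.3 (lmFit, eBayes) was fitted over all genes, for each fraction and model in 4 groups, over all 54 WT arrays with age as a term, and over 12 groups per model for differences between fractions. Errors are SE of the fit unless named otherwise, and array number limits the precision. The fit was tested on simulated data. P-values measure the spread between pools. The genes named in a comparison were mostly drawn from up to 8 called members per direction with the smallest p, the X-linked members and up to 3 called genes of each partner list. Not every gene so drawn is named in the text. Members and lists were chosen with earlier results of these data known. Alternatives were no filter, the mean of a gene's probe sets, an intensity trend with robust estimation, only the 2 groups compared, a replicate block, a Y-linked covariate and leaving out samples.

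The labels do not say that equal sample numbers mark 1 pool. Deviations of equal numbers from the group means had median r of 0.098 (astrocytes and microglia), 0.16 (astrocytes and negative cells) and 0.088 (microglia and negative cells), and 18, 26 and 17 of 37 pairs were above 0.1. Equal numbers correlated best with their own number in 24, 26 and 26 of 37 samples. The match was sought among the 4 to 6 samples of the corresponding group. The main fits across fractions have no block and treat arrays of equal number as independent, although most samples matched their own number best. The block was run as an alternative for those fits.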

Additional observations from a re-analysis of the deposited data

Results flagged for a closer look

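A sample far from the rest of its group was found in 3 of 82 sets checked, each set being the values of 1 called member in 1 group. Chance gives about 1 in 20 for a single set, and the sets share arrays. In R6/2 negative cells at 12 weeks, sample 11 had Pcdh10 at 9.32 against 10.11 to 10.45 in the other 5 samples. The same sample had Pcdhb10 at 6.02 against 6.84 to 7.28. In WT negative cells at 12 weeks, sample 16 had Pcdh15 at 3.46 against 6.41 to 7.22.

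The R6/2 effect in negative cells differed between 12 and 6 weeks by 1.98 for Pcdh10, 2.66 for Pcdh11x, 1.45 for Pcdh17, 2.04 for Pcdh20, 1.91 for Pcdh7 and 1.74 for Pcdhb9, all by a test of the difference. At 12 weeks the R6/2 effect in astrocytes differed from that in microglia by -1.23 for Pcdh1, 1.6 for Pcdh15 and 1.32 for Pcdhb9. Those members were under the dim level in the microglial fit. The R6/2 effect in astrocytes differed from that in negative cells by -2.6 for Pcdh10 and for Pcdh7, -2.87 for Pcdh11x, 1.43 for Pcdh12, -1.8 for Pcdh17, 0.8 for Pcdh19 and -2.86 for Pcdh20. At 12 months the zQ175 effect in astrocytes differed from that in microglia by -2.81 for Pcdh11x and -2.05 for Pcdh17, and from that in negative cells by -1.38 for Pcdh7. Pcdh7 was under the dim level in the zQ175 negative-cell fit.

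Among the 6 probe sets with several Pcdha symbols, which no comparison of single genes used, 1 was higher in R6/2 than WT astrocytes at 12 weeks. It was at 6.73 to 7.76 in the 6 R6/2 samples and at 6.11 to 6.68 in the 5 WT samples, without overlap. The difference was 0.91 ± 0.22 (limma adjusted p over all probe sets = 0.0048). In that comparison 28.7% of all genes tested were called, 14.5% higher. Other probe sets of the 6 had means over all WT astrocyte samples of 3.04, 3.19, 3.31 and 4.61. The dim level of that fit was 5.52, so 1 of 6 cannot be set against a share of tested genes.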

How the results depend on the processing

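With no filter on dim genes 33 members were called between WT astrocytes and microglia (30 higher, 3 lower), 27 between astrocytes and negative cells (21 higher, 6 lower) and 31 between microglia and negative cells (6 higher, 25 lower). Of all 18194 genes, 14731, 12292 and 15158 were called in either direction in these comparisons without the filter. No filter also gave 2 members for WT microglia between 12 and 6 weeks, 4 for zQ175 negative cells at 12 months and 11 for the R6/2 effect between astrocytes and negative cells. There 3312, 762 and 2656 of all genes were called. With the mean of a gene's probe sets the counts were 0 in R6/2 astrocytes at 6 weeks, 7 at 12 weeks (6 higher, 1 lower), 1 in zQ175 astrocytes at 12 months, 2 in WT astrocytes and 1 in WT microglia between 12 and 6 months, 1 for the R6/2 effect between astrocytes and microglia and 3 for the zQ175 effect between astrocytes and negative cells. Under that mean 45 single calls were lost, 33 by falling under the dim level, and Pcdhb16 in WT negative cells between 12 and 6 weeks turned from -0.5745 to 0.0853. An intensity trend gave 1 call in zQ175 astrocytes at 6 months and lost 1 call. Only the 2 groups compared gave 0 in zQ175 microglia at 12 months, 2 in R6/2 negative cells at 6 weeks and 4 in zQ175 negative cells at 12 months. Without WT samples 12 and 20, chosen after seeing the data, 4 members were called in WT astrocytes between 12 and 6 weeks and 0 for the R6/2 effect between astrocytes and microglia. With the replicate block the counts were 20, 16 and 19 between WT fractions, 4 and 10 for R6/2 (3 and 7 without it) and 2 and 1 for zQ175, and it changed no call of a named gene. Equal numbers correlated best with their own number in 24 to 26 of 37 samples.

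Leaving out single samples gave counts of 1 to 2 in R6/2 astrocytes at 6 weeks and 8 to 13 at 12 weeks, 0 to 1 in zQ175 astrocytes at 6 months and 2 to 4 at 12 months, 2 to 4 in zQ175 microglia and 2 to 7 in zQ175 negative cells at 12 months, 12 to 18 in R6/2 negative cells at 12 weeks, 5 to 8 for their change with age and 0 to 1 for that of zQ175 negative cells. For WT ages they were 5 to 7 and 0 to 3 in astrocytes, 0 to 1 and 0 to 3 in microglia and 10 to 13 in younger negative cells. For effects between fractions they were 1 to 4 and 6 to 9 in R6/2 and 2 to 3 and 0 to 1 in zQ175, and between WT fractions 19 to 21, 15 to 17 and 19 to 20. A Y-linked covariate, run only for Pcdh11x and Pcdh19, changed 1 of their 24 calls, that of Pcdh19 in R6/2 astrocytes at 12 weeks (0.55).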

Other observations

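The probe set of the alpha cluster that was higher in R6/2 astrocytes at 12 weeks had a different order of fractions from most single members. Its group means ran from 8.0 to 9.73 in negative cells, from 6.20 to 7.35 in astrocytes and from 2.68 to 4.19 in microglia, so it was highest in negative cells in every model, genotype and age. In astrocytes of the zQ175 colony at 12 months it was at 6.77 ± 0.33 (SD, n = 4) in zQ175 and at 6.20 ± 0.14 (SD, n = 4) in WT, a difference of 0.57 ± 0.16 (SE, limma adjusted p over all probe sets = 0.064) that was not called. Which Pcdha gene its values come from cannot be read from the probe set.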
